A study of Neurospora crassa with 54 samples.

Results

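The clock-controlled genes ccg-1 (NCU03753) and eas (NCU08457, also called ccg-2) of the filamentous fungus Neurospora crassa were followed by RNA-seq through 12 libraries, and they are 2 of the 10398 genes in the deposited count table. They were chosen by name and located through their locus tags. The libraries came from 4 strains with 3 libraries each. The strains were wild type, ∆hH2Az, which lacks the gene of the histone variant H2A.Z, ∆set-7, which lacks the gene of the histone H3 lysine 27 methyltransferase SET-7, and ∆hH2Az;∆set-7, which lacks both. Per the labels all 12 were poly(A) libraries of mycelium grown for 12 h at 30 °C under constant light in VMM with 2% glucose. Each genotype carried 1 strain code, so a genotype here is a single isolate, and nothing in the labels says that the libraries came from separate cultures, so p-values measure the spread between these libraries. Replicates 1 and 2 of every strain carried the label tag 920 and replicate 3 another tag, and the meaning of these tags is not stated. The design text of the series also lists later collection times without saying for which samples, and the time given here is that of the RNA labels.

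Clock-controlled genes are outputs of the Neurospora circadian clock, a feedback loop in which the FRQ protein restrains the White Collar complex, which is itself a blue-light-responsive transcription factor. ccg-1, also known as grg-1, is repressed by glucose and is abundant in starved hyphae, and its promoter is widely used to drive transgenes in this fungus. eas encodes the hydrophobin that coats aerial hyphae and conidia with a water-repellent layer of rodlets; its name, easily wettable, comes from mutants whose conidia take up water, and its transcript is known to respond to light and to conidial development. H2A.Z replaces H2A in nucleosomes near promoters, and SET-7 is the catalytic subunit of PRC2, which deposits the H3K27 methylation found over silent genes. All RNA labels give the same growth time and constant light, so these libraries were not used to describe a rhythm.

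ccg-1 lies on the minus strand of chromosome V from 2302672 to 2303443 (NC12 assembly), with 3 exons. eas lies on the plus strand of chromosome II from 3570905 to 3572798, also with 3 exons. Neither overlaps another annotated gene. Counting was unstranded, so sense and antisense reads cannot be told apart at either locus.

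Total counts ran from 13581416 to 19720473 reads per library, and 8372 genes, both members included, passed the filter on low counts. The deleted genes were lower in their own deletion strains but not at 0. hH2Az had 65.6, 76.9 and 74.9 CPM (reads scaled to library size, with TMM factors) in wild type and 16.7, 17.9 and 32.5 CPM in ∆hH2Az, and it ranged from 78.8 to 105.4 CPM in ∆set-7 and from 23.1 to 37.8 CPM in ∆hH2Az;∆set-7. set-7 ranged from 7.85 to 12.5 CPM in the strains that carry it and from 2.71 to 5.16 CPM in those that lack it. Every library was therefore on the side its label gives. Whether the remaining reads lie outside the deleted stretch is not stated. Replicate 3 stood apart from replicates 1 and 2 in every strain: a chi-square of the read counts, per gene, was 25.5 to 45.3 between replicates 1 and 2 and 135.8 to 351.1 between either of them and replicate 3. Values from the 8 libraries tagged 920 alone are therefore given beside the results for ccg-1 and eas. Calls were made with edgeR's quasi-likelihood test at a Benjamini-Hochberg adjusted p under 0.05 over all 8372 genes tested.

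ccg-1 was tightly reproduced and separated the strains. Its level in wild type was 120.5, 119.9 and 131.8 CPM, a mean of 124.1 ± 6.68 (SD, n = 3). In ∆hH2Az it was 63.3, 63.7 and 58.1 CPM, a mean of 61.7 ± 3.13 (SD, n = 3), so all 3 libraries lay below all of wild type. In ∆set-7 it was 273.0, 252.9 and 221.0 CPM, a mean of 249.0 ± 26.2 (SD, n = 3), above every other library. In ∆hH2Az;∆set-7 it was 52.6, 43.2 and 55.2 CPM, a mean of 50.3 ± 6.27 (SD, n = 3), the lowest of the 4 strains. The order of the means was thus ∆set-7, wild type, ∆hH2Az, ∆hH2Az;∆set-7, with no overlap between any neighbours in that order, although ∆hH2Az and ∆hH2Az;∆set-7 did not differ by the test.

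eas behaved differently and varied widely within strains. In wild type it was 38.2, 66.8 and 19.1 CPM, from 453, 867 and 330 reads. In ∆hH2Az only 6, 10 and 14 reads were counted, or 0.287, 0.511 and 0.672 CPM, and all 3 libraries lay below every library of the other strains. In ∆set-7 replicates 1 and 2 had 8.73 and 8.47 CPM, below all of wild type, whereas replicate 3 had 122.3 CPM, above all of wild type. In ∆hH2Az;∆set-7 the values were 3.82, 19.0 and 1.32 CPM. Replicate 2 of that strain lay just below the lowest wild-type library and exceeded replicates 1 and 2 of ∆set-7. By mean the order was ∆set-7 (46.5 ± 65.7 CPM), wild type (41.3 ± 24.0 CPM), ∆hH2Az;∆set-7 (8.04 ± 9.56 CPM) and ∆hH2Az (0.490 ± 0.193 CPM, SD, n = 3 each); no neighbours in that order differed by the test.

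**Figure D1:**
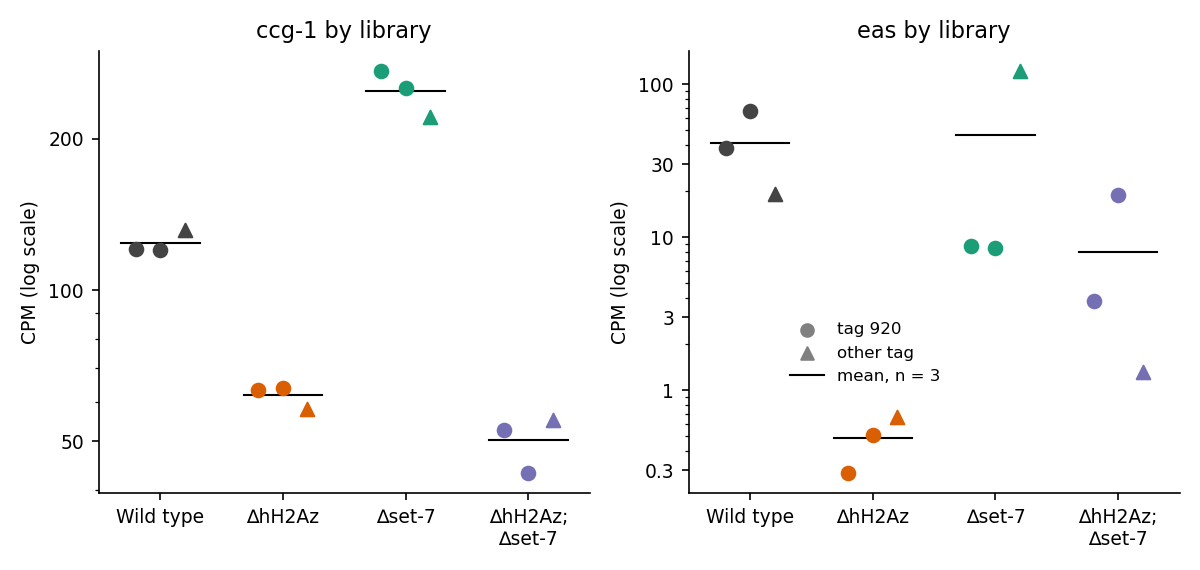
Level of ccg-1 (left) and eas (right) in each of the 12 libraries, in CPM on a log axis, by strain. Circles are libraries tagged 920, triangles those with the other tag, and bars are means of 3 libraries. Libraries of the 4 strains do not overlap for ccg-1, although ∆hH2Az and ∆hH2Az;∆set-7 lie close and did not differ by the test. For eas they span 8.47 to 122.3 CPM within ∆set-7 alone.

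Spread within strains set the genes apart from each other. The pooled within-strain SD of log2 CPM was 0.13 for ccg-1, and 1.91% of the genes tested had a smaller one. It was 1.54 for eas, and 99.28% of genes had a smaller one; the median gene had 0.37. The highest library exceeded the lowest by 6.31-fold for ccg-1 and by 426.5-fold for eas. Within ∆set-7 the highest eas value was 14.4 times the lowest, and within ∆hH2Az;∆set-7 it was also 14.4 times.

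Per kilobase of exon, ccg-1 stood above eas in every library. In wild type ccg-1 had 193.0 to 212.2 CPM per kb, above 94.57% to 95.8% of the genes tested in the same libraries, and in ∆hH2Az;∆set-7 it was above 87.28% to 88.84% of them. eas per kilobase exceeded 52.44% to 78.88% of genes in wild type but only 2.27% to 6.24% in ∆hH2Az. In ∆set-7 it exceeded 36.22% and 35.51% of genes in replicates 1 and 2 and 88.83% in replicate 3.

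Both transcripts were lower in ∆hH2Az than in wild type. ccg-1 fell by 1.01 on the log2 scale in ∆hH2Az against wild type (edgeR adjusted p = 0.00077, SE 0.16), a 2.01-fold difference with a 95% interval of 1.59 to 2.55. eas fell by 6.38 on the log2 scale (edgeR adjusted p = 0.00495, SE 1.27), an 83.2-fold difference with an interval of 12.2 to 565.5. Only 2 of the 8372 genes had a more negative log2 change than eas, whereas 1066 were below ccg-1. In this comparison 31.1% of all genes tested were called, 14.9% lower, and 23.1% had all libraries of ∆hH2Az below all of wild type, so a fall as such is common in ∆hH2Az. Restricted to the 920 libraries, the differences were -0.90 for ccg-1 and -7.01 for eas (edgeR adjusted p = 0.000188 and 7.48e-06). There 4648 genes were called, against 2604 in all 12 libraries. In bulk RNA, fewer cells with a transcript and less transcript per cell cannot be told apart.

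ccg-1 was higher in ∆set-7 than in wild type. The gene rose by 1.01 on the log2 scale in ∆set-7 against wild type (edgeR adjusted p = 0.0078, SE 0.16), a 2.01-fold difference with an interval of 1.58 to 2.54. That placed it among the 1.03% of genes called in this comparison, 1.02% higher (85 of 86 calls); 8.19% of genes had all libraries of ∆set-7 above all of wild type. The call was lost without wild-type replicate 1 (0.99, edgeR adjusted p = 0.0540) and without wild-type replicate 2 (0.98, edgeR adjusted p = 0.0612). Libraries of these strains with the same replicate number deviated together, and in a fit of these strains alone with the replicate number as a block, added after the data were seen, the rise was 1.03 (edgeR adjusted p = 0.0639) and was not called. It was 1.145 in the 920 libraries alone (edgeR adjusted p = 0.000351), where 904 genes were called, against 86 in all 12 libraries.

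For eas the same comparison gave 0.17 on the log2 scale (edgeR adjusted p = 0.992, SE 1.02), with an interval of -2.07 to 2.41. Its sign depended on single libraries. It was -2.26 without ∆set-7 replicate 3 (edgeR adjusted p = 0.325) and -0.17 without wild-type replicate 3 (edgeR adjusted p = 1.00). In the 920 libraries alone it was -2.59 (edgeR adjusted p = 0.0100), and with the replicate block on these strains alone -1.06 (edgeR adjusted p = 0.762). The other tag has 1 library per strain, and there the log2 ratio of ∆set-7 to wild type was 2.68 for eas and 0.746 for ccg-1, given without a test. Between tags within strains, ccg-1 differed by -0.01 and eas by 0.57 (edgeR adjusted p = 0.978 and 0.816), with 0.729% of genes called. Tag and replicate 3 cannot be told apart in these labels.

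In the ∆hH2Az;∆set-7 strain ccg-1 was lower, not higher, than in wild type. Against wild type it fell by 1.302 on the log2 scale (edgeR adjusted p = 0.000165, SE 0.16), a 2.46-fold difference, in a comparison that called 30.5% of genes. Against ∆set-7 it fell by 2.31 (edgeR adjusted p = 8.56e-06, SE 0.16), a 4.95-fold difference, where 29.7% of genes were called and 21.8% had all libraries lower. Against ∆hH2Az the difference was -0.29 (edgeR adjusted p = 0.595, SE 0.16, interval -0.64 to 0.05) although the libraries did not overlap; 1.45% of genes were called there, and 6.04% had all libraries of ∆hH2Az;∆set-7 below all of ∆hH2Az. That difference was -0.42 and was called in the 920 libraries alone (edgeR adjusted p = 0.0475), where those from wild type and ∆set-7 were -1.32 and -2.46 (edgeR adjusted p = 1.13e-05 and 8.17e-08). The 920 libraries alone called 2478 genes against ∆hH2Az, 4578 against wild type and 4797 against ∆set-7. In all 12 libraries these counts were 121, 2551 and 2486.

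The interaction of the deletions tests whether the effect of deleting set-7 differs with hH2Az. For ccg-1 it was -1.299 on the log2 scale (edgeR adjusted p = 0.04998, SE 0.22), just under the threshold, and 0.179% of genes (15) were called. The call was lost in 13 of 21 alternative fits, with the estimate between -1.56 and -1.20 in all 21. Among the 12 fits without 1 library it was lost in 9, namely without any 1 wild-type library or without replicate 1 or 2 of any deletion strain (highest edgeR adjusted p = 0.214). In the 920 libraries alone it was -1.56 (edgeR adjusted p = 0.000163), but there 2167 genes were called, against 15 in all 12 libraries. Of the 85 genes called higher in ∆set-7 than in wild type, 19 were called lower in ∆hH2Az, and ccg-1 was the only 1 of these also called lower in ∆hH2Az;∆set-7. Of all genes tested, 14.9% were called lower in ∆hH2Az and 15.2% in ∆hH2Az;∆set-7. These counts rest on the threshold, which ccg-1 itself missed in the ∆set-7 fits given above. The 3 genes closest to ccg-1 in profile, named below, moved in the same directions but were not called in ∆set-7.

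For eas the ∆hH2Az;∆set-7 strain lay between the others, with wide intervals. Against wild type the difference was -2.35 (edgeR adjusted p = 0.123, SE 1.04) although the libraries did not overlap, as for 23.2% of genes in that direction. It passed without ∆hH2Az;∆set-7 replicate 2 (-3.996, edgeR adjusted p = 0.0385) and without ∆set-7 replicate 3 (-2.33, edgeR adjusted p = 0.0461). Against ∆hH2Az eas was higher by 4.03 (edgeR adjusted p = 0.216, SE 1.28, interval 1.24 to 6.82) without overlap, as for 5.7% of genes, and the estimate was 2.38 without ∆hH2Az;∆set-7 replicate 2. Against ∆set-7 it was -2.52 (edgeR adjusted p = 0.103, SE 1.04) with overlapping libraries. That estimate was -0.07 without ∆set-7 replicate 3 and -4.17 without ∆hH2Az;∆set-7 replicate 2 (edgeR adjusted p = 0.957 and 0.0348). The interaction was 3.86 (edgeR adjusted p = 0.773, SE 1.64, interval 0.28 to 7.44). Within the 920 libraries, eas in ∆hH2Az;∆set-7 was -2.18 against wild type and 4.83 against ∆hH2Az, and its interaction was 7.42 (edgeR adjusted p = 0.00273, 0.000488 and 0.000135), whereas against ∆set-7 it was 0.41 (edgeR adjusted p = 0.511). The counts of genes called in the 920 libraries are those given above for ccg-1.

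**Figure D2:**
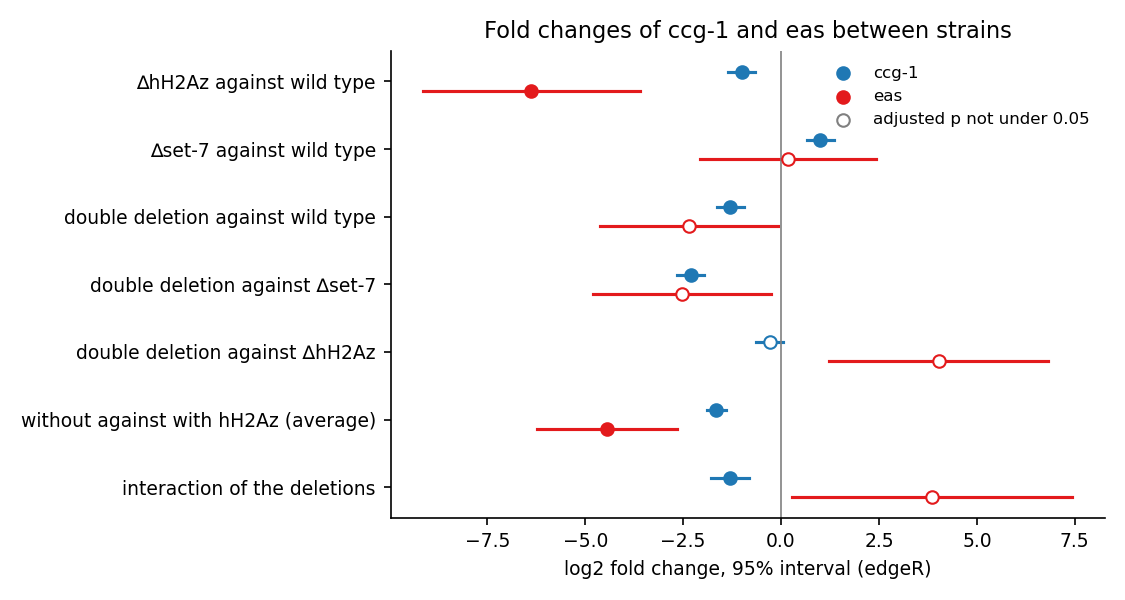
Log2 fold change (x axis) of ccg-1 (blue) and eas (red) in each comparison of strains, with 95% intervals from the edgeR fit. The double deletion is ∆hH2Az;∆set-7; filled points passed an adjusted p under 0.05. Intervals of ccg-1 are narrow in every comparison, and eas passed only in ∆hH2Az against wild type and in the average over strains without against with hH2Az.

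Averaged over the strains with and without set-7, both genes were lower without hH2Az. ccg-1 fell by 1.66 on the log2 scale (edgeR adjusted p = 9.34e-07, SE 0.11), a 3.15-fold difference, and its 6 libraries without hH2Az lay below its 6 libraries with it, as for 12.2% of genes. eas fell by 4.45 (edgeR adjusted p = 0.00153, SE 0.82), a 21.9-fold difference, and its groups overlapped. For eas this is the mean of unlike differences, -6.38 where set-7 is present and -2.52 where it is absent. The latter was not called (edgeR adjusted p = 0.103). In the 920 libraries alone these differences were -7.01 and 0.41, so a fall of eas was not shown where set-7 is absent. The eas average was -3.22 without ∆set-7 replicate 3 and -5.27 without ∆hH2Az;∆set-7 replicate 2, and it passed the test in both cases (edgeR adjusted p = 0.00211 and 0.000905). The averages in the 920 libraries alone were -1.68 for ccg-1 and -3.296 for eas (edgeR adjusted p = 2.89e-08 and 5.16e-05). With all 12 libraries 47% of genes were called in this comparison, and the share in the 920 libraries alone is not given here.

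The ratio of eas to ccg-1 reads per kilobase does not depend on how libraries are scaled. ccg-1 exceeded eas by 8.54, 4.87 and 18.7 times in the 3 wild-type libraries. In ∆hH2Az it exceeded eas by 552.2, 322.2 and 226.4 times. The factor was 84.5, 80.6 and 4.90 in ∆set-7 and 37.0, 6.17 and 110.4 in ∆hH2Az;∆set-7. The mean log2 ratio was -6.65 ± 2.39 (SD, n = 6) without hH2Az and -4.11 ± 1.89 (SD, n = 6) with it, a difference of -2.54 that did not pass a two-sided exact permutation test over libraries (p = 0.0758; the smallest p it can give is 0.00217). Between wild type and ∆hH2Az alone the difference was -5.22, with an exact permutation p of 0.1, the smallest that 3 against 3 libraries allow. Between ∆set-7 and ∆hH2Az;∆set-7 it was 0.13 (exact permutation p = 1.0). Without ∆hH2Az;∆set-7 replicate 2 the overall difference was -3.35 and passed (exact permutation p = 0.0173), and in the 920 libraries alone it was -1.79 (exact permutation p = 0.371).

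**Figure D3:**
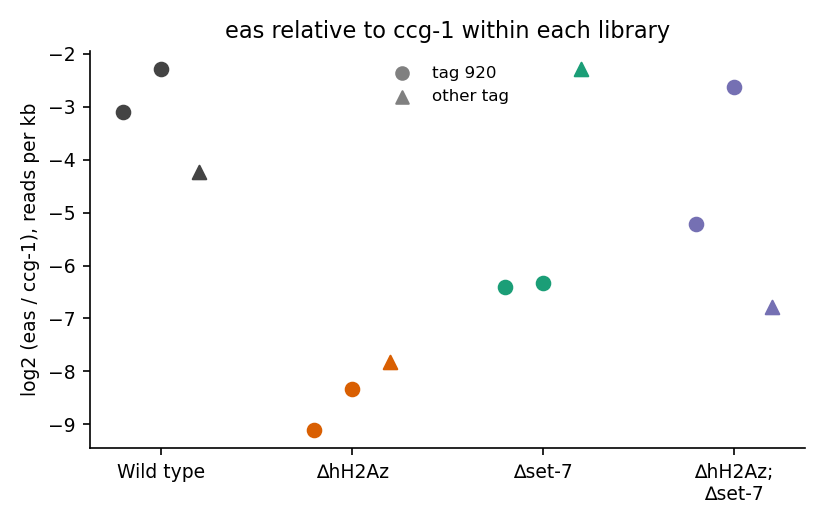
Log2 ratio of eas to ccg-1 reads per kilobase of exon (y axis) in each library, by strain; circles are libraries tagged 920 and triangles those with the other tag. The 3 libraries of ∆hH2Az lie lowest, and ∆set-7 replicate 3 lies with wild type while replicates 1 and 2 lie below it.

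Some markers of other tissue moved with hH2Az, though not as sets. The 5 conidial markers (fl, con-6, con-8, con-10 and con-13), none of which was at 0 in any strain, summed to between 67.0 and 84.5 CPM in wild type, 49.6 and 82.6 in ∆set-7, 150.1 and 810.2 in ∆hH2Az and 340.2 and 1023 in ∆hH2Az;∆set-7. In the strains without hH2Az that sum was mostly con-8, which had 795.3, 799.8 and 132.6 CPM in ∆hH2Az and 30.7 to 66.4 CPM in wild type. In wild-type replicate 3 con-8 (30.7 CPM) was below fl (34.2 CPM). Without con-8 the other 4 summed to 18.1, 21.7 and 36.4 CPM in wild type, 11.4, 10.4 and 17.4 in ∆hH2Az, 15.6, 13.8 and 29.5 in ∆set-7 and 21.6, 22.1 and 10.9 in ∆hH2Az;∆set-7. The sum of these 4 was thus lower in ∆hH2Az than in wild type, opposite to con-8. It was mostly fl, with means of 22.8 CPM in wild type and 9.51 CPM in ∆hH2Az. Mean con-10 was also lower in ∆hH2Az (1.54 against 2.04 CPM). Means of con-6 (1.11 against 0.424 CPM) and con-13 (0.918 against 0.181 CPM) were higher there, at low levels. In ∆set-7 replicate 3, the library with 122.3 CPM of eas, fl had 26.8 CPM against 11.5 and 10.2 in replicates 1 and 2, while con-8 (51.6 CPM) lay between theirs (33.9 and 68.8 CPM). In wild type fl was also highest in replicate 3 (34.2 CPM), where eas was lowest. The hyphal markers hex-1 and so, the 2 of 4 listed that could be matched, summed to between 1511 and 1858 CPM in wild type, 1509 and 2288 in ∆set-7, 595.1 and 949.2 in ∆hH2Az and 535.8 and 1416 in ∆hH2Az;∆set-7. These sums are mostly hex-1, which fell by 1.02 in the average over strains without hH2Az (edgeR adjusted p = 0.00811), whereas so rose by 0.54 (edgeR adjusted p = 0.0352, lost with upper-quartile scaling and in 7 of 12 fits without 1 library). The 5 markers of sexual tissue (poi-2, app, Asm-1, mfa-1 and ccg-4) had overlapping sums in all strains, 141.5 to 238.3 CPM in wild type, 120.6 to 209.2 in ∆hH2Az, 93.4 to 254.1 in ∆set-7 and 82.0 to 269.5 in ∆hH2Az;∆set-7. Of these, poi-2 (-3.24) and app (-3.59) fell in the average over strains without hH2Az (edgeR adjusted p = 3.54e-05 and 0.00254). The part of tissue make-up in the changes of ccg-1 and eas was not tested.

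The nearest flanking gene of ccg-1 shared its falls but not its rise. NCU03752, 179 bp downstream of ccg-1, had 57.4, 59.4 and 58.4 CPM in wild type and 34.1, 35.9 and 27.3 CPM in ∆hH2Az. It fell by 0.85 on the log2 scale there (edgeR adjusted p = 0.0296) and by 1.399 in ∆hH2Az;∆set-7 (edgeR adjusted p = 0.00252). Of all genes tested, 14.9% were called lower in ∆hH2Az and 15.2% in ∆hH2Az;∆set-7, so such falls are common. In ∆set-7, where ccg-1 rose, NCU03752 differed from wild type by -0.01 (edgeR adjusted p = 0.997). The fall in ∆hH2Az missed the threshold in each of the 6 fits without 1 library of either strain compared (highest edgeR adjusted p = 0.0837).

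Of the next genes around ccg-1, 1 of 3 was called in ∆hH2Az, where 31.1% of all genes tested were called. NCU03755, 9.84 kb upstream, fell by 0.96 in ∆hH2Az (edgeR adjusted p = 0.0395, lost in 6 of 12 fits without 1 library, with a highest edgeR adjusted p of 0.168) and by 0.89 on average without hH2Az (edgeR adjusted p = 0.00705). NCU03754, 3.24 kb upstream, and NCU03751, 2.24 kb downstream, were called in neither of these comparisons, with averages of -0.28 and -0.09 (edgeR adjusted p = 0.416 and 0.787). None of the 4 was called in ∆set-7, where 1.03% of all genes tested were called.

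At eas the nearest tested neighbour moved in the opposite direction. NCU08456, 1070 bp downstream on the same strand, had 6.50, 7.85 and 7.97 CPM in wild type and 24.8, 26.03 and 30.7 CPM in ∆hH2Az, a rise of 1.87 on the log2 scale (edgeR adjusted p = 0.000275). In ∆hH2Az;∆set-7 it had 22.4, 26.9 and 31.6 CPM, a rise of 1.855 (edgeR adjusted p = 0.0003105). Such rises are common too, as 16.2% of all genes tested were called higher in ∆hH2Az and 15.3% in ∆hH2Az;∆set-7. In ∆set-7 NCU08456 had 5.88, 5.60 and 9.68 CPM, and the difference from wild type was -0.08 (edgeR adjusted p = 0.985). Its 3 libraries of ∆hH2Az;∆set-7 lay close together, whereas eas spread 14.4-fold in the same libraries. The tRNA genes NCU15276 and NCU15277 and the gene NCU10730 on either side of eas had between 0 and 13 reads per strain and were not tested.

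**Figure D4:**
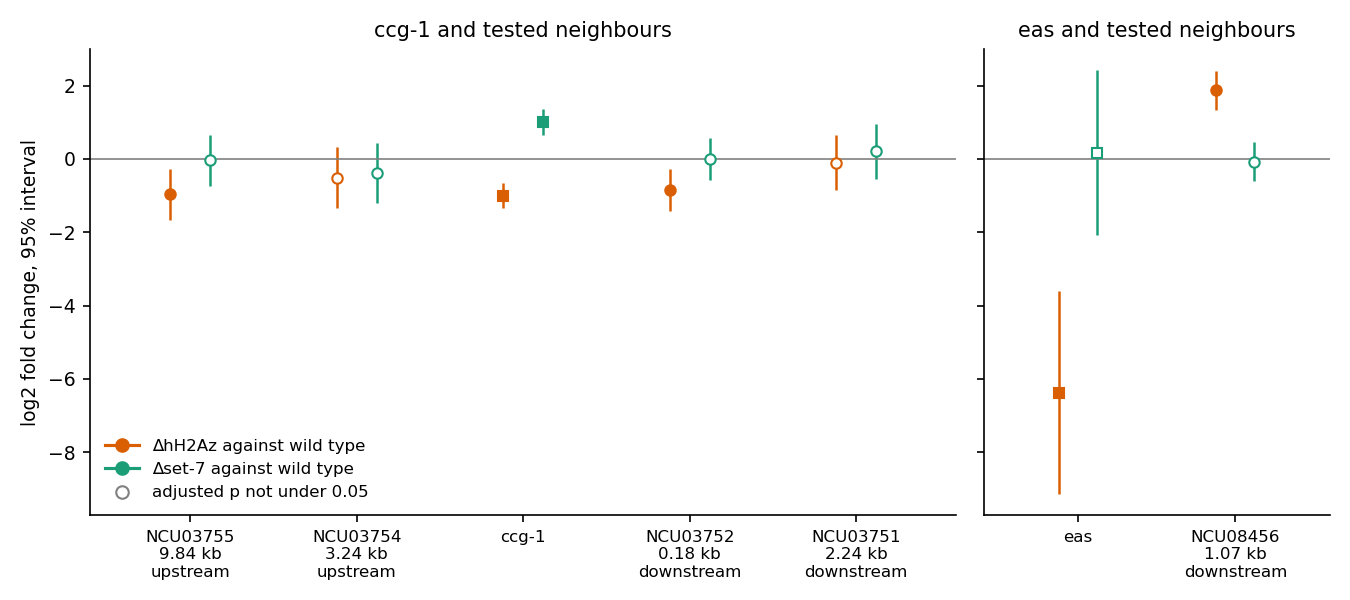
Log2 fold change with 95% interval (y axis) of ccg-1 and eas (squares) and of their tested flanking genes (circles), ordered along the chromosome with the gap to the member given below each name. Orange is ∆hH2Az against wild type, green is ∆set-7 against wild type, and filled symbols passed an adjusted p under 0.05. ccg-1 is the only gene shown that passed in ∆set-7, and NCU08456 rose where eas fell.

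Genes most like ccg-1 in centred log2 CPM over the 12 libraries were nuo10.5, which encodes a subunit of mitochondrial complex I, NCU02512 and NCU07382. Their root mean square differences from ccg-1 were 0.25, 0.31 and 0.32 log2 units, against a median of 1.015 over 7850 genes with a mean of at least 1 CPM. nuo10.5 had 126.2, 141.5 and 128.6 CPM in wild type, 62.7 to 73.1 in ∆hH2Az, 244.4, 271.9 and 156.2 in ∆set-7 and 54.1 to 74.9 in ∆hH2Az;∆set-7. Since these genes were chosen for their likeness to ccg-1 over the same libraries, their differences are given with no test: -0.93, -1.49 and -1.16 in ∆hH2Az and 0.76, 0.55 and 0.45 in ∆set-7 against wild type, on the log2 scale. NCU07382 overlaps another annotated gene, so its reads may be shared.

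The closest profiles to eas were less close. NCU09473, NCU07159 and NCU09773 differed from it by 1.10, 1.15 and 1.21 log2 units, against a median of 2.66, and ccg-1 differed from it by 2.25. NCU09473 had 85.6, 53.2 and 24.9 CPM in wild type, 0.717, 1.07 and 2.64 in ∆hH2Az, 54.9, 35.9 and 53.8 in ∆set-7 and 5.58, 10.3 and 2.36 in ∆hH2Az;∆set-7. It was highest in replicate 1 of wild type, where eas was highest in replicate 2, and it did not show the gap between replicate 3 and the other libraries of ∆set-7. NCU07159 had 315.7, 409.9 and 1028 CPM in ∆set-7, and NCU09773 had 4.05, 6.36 and 16.5 CPM, so replicate 3 was also the highest there. Their log2 differences between ∆hH2Az and wild type were -5.20, -3.595 and -5.71, given with no test because the likeness to eas chose these genes. The annotation used describes no gene as a hydrophobin, so eas was the only gene of that family followed.

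Other clock-controlled genes did not move as a block with ccg-1 and eas. Of 10 listed, 9 were tested, and in the average over strains without against with hH2Az 3 fell and 1 rose, with a median of -0.35 against 0.02 over all genes. In that comparison 22.8% of all genes fell and 24.2% rose (1910 and 2026 genes; 2365 and 1559 with upper-quartile scaling, which moved the median of all genes to -0.12). ccg-14 fell by 2.02 (edgeR adjusted p = 0.00341), gpd-1 (ccg-7), which encodes the glycolytic enzyme glyceraldehyde-3-phosphate dehydrogenase, by 1.08 (edgeR adjusted p = 0.00278) and ccg-16 by 0.99 (edgeR adjusted p = 0.00119). Groups of ccg-14 and gpd-1 overlapped, and those of ccg-16 did not. In replicate 3 of wild type, ∆hH2Az, ∆set-7 and ∆hH2Az;∆set-7, gpd-1 had 3415, 3071, 7551 and 6312 CPM. There ccg-14 had 2251, 1646, 2352 and 1753 CPM. ccg-9, which encodes a trehalose synthase, rose by 2.26 (edgeR adjusted p = 0.0441). The ccg-9 call was lost in 9 of 12 fits without 1 library, was 0.44 in the lowest of them and was also lost with upper-quartile scaling (edgeR adjusted p = 0.0575); its level in ∆hH2Az;∆set-7 was 9.52, 8.56 and 319.5 CPM. With that scaling none of the 9 rose and 4 fell. In ∆set-7 none of the 9 was called by edgeR, by DESeq2 or at an unadjusted p under 0.05, and their median was 0.15. Of all genes tested, edgeR called 1.03% there and 7.56% had an unadjusted p under 0.05, so no call among 9 is near these shares. Of the 11 clock-controlled genes tested, ccg-1 alone passed there, with a call that was lost in some alternative fits.

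Clock and photoreceptor genes were called about as often as genes at large, in both directions. Of 15 listed, 14 were tested, and 5 rose and 2 fell in the average over strains without hH2Az, with a median of 0.34; the 7 of 14 called is near the 47% of all genes called there. nop-1, which encodes an opsin, rose by 1.72 (edgeR adjusted p = 0.00192), cry, the cryptochrome gene, by 1.615 (edgeR adjusted p = 0.00211) and frq, the central negative element of the clock, by 0.91 (edgeR adjusted p = 0.00918). frq had 105.8, 99.4 and 183.3 CPM in wild type and 261.3, 320.2 and 156.7 in ∆hH2Az;∆set-7, so its groups overlapped. Groups of cry overlapped too. In replicate 3 cry had 103.0 CPM in wild type, 78.1 in ∆hH2Az and 183.2 in ∆hH2Az;∆set-7, so it was not higher in ∆hH2Az there. ckb-1 and cka, which encode subunits of casein kinase II, a kinase of FRQ, fell by 0.75 and 0.65 (edgeR adjusted p = 0.000285 and 0.000569). With upper-quartile scaling 4 rose and 3 fell. None of the 14 was called in ∆set-7 by edgeR, by DESeq2 or at an unadjusted p under 0.05. Of all genes tested, edgeR called 1.03% there and 7.56% had an unadjusted p under 0.05, so few or no calls would be found among 14 genes at large.

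Of the light-induced genes, 6 of 11 rose in the average over strains without hH2Az, in which ccg-1 and eas fell. All 11 listed were tested, and none fell in the average over strains without hH2Az, with a median of 1.00; of all genes tested 24.2% rose and 22.8% fell there. bli-4 (blue light-induced) went from 17.2, 14.4 and 12.4 CPM in wild type to 356.8, 271.2 and 85.1 in ∆hH2Az and rose by 3.86 on average (edgeR adjusted p = 5.08e-06). cao-2, which encodes a carotenoid-cleaving oxygenase, and al-1, which encodes phytoene desaturase, rose by 1.603 and 1.46 (edgeR adjusted p = 3.21e-05 and 0.000419). In replicate 3 al-1 had 111.6 CPM in wild type, 108.7 in ∆hH2Az and 218.4 in ∆hH2Az;∆set-7, so it was not higher in ∆hH2Az there. cao-2 was also the only listed gene of this group called in ∆set-7, at 1.23 (edgeR adjusted p = 0.0452), a call lost in 9 of 12 fits without 1 library. Of all genes tested 1.03% were called there.

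Conidiation genes, the group to which the rodlet layer belongs by function, moved in both directions. Of 13 listed, 11 were tested, and 3 rose and 3 fell in the average over strains without hH2Az, with a median of -0.48; the 6 of 11 called is near the 47% of all genes called. con-8 rose by 3.54 (edgeR adjusted p = 0.000106), acu-6, which encodes phosphoenolpyruvate carboxykinase and was matched through its synonym con-3, by 2.80 (edgeR adjusted p = 0.00477) and con-6 by 2.02 (edgeR adjusted p = 0.0454). tah-2 fell by 1.27 (edgeR adjusted p = 0.000369), fl, the transcription factor gene that drives conidiophore development, by 0.94 (edgeR adjusted p = 0.0259) and csp-2, a regulator of conidial separation, by 0.56 (edgeR adjusted p = 0.0124). The call was lost for con-6 in 9 and for fl in 6 of 12 fits without 1 library, with highest edgeR adjusted p of 0.423 and 0.0717. With upper-quartile scaling 2 of the 11 rose and 5 fell. In ∆set-7 none of the 11 was called by edgeR, by DESeq2 or at an unadjusted p under 0.05. With 1.03% of all genes called there by edgeR and 7.56% at an unadjusted p under 0.05, few or no calls would be found among 11 genes at large.

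**Figure D5:**
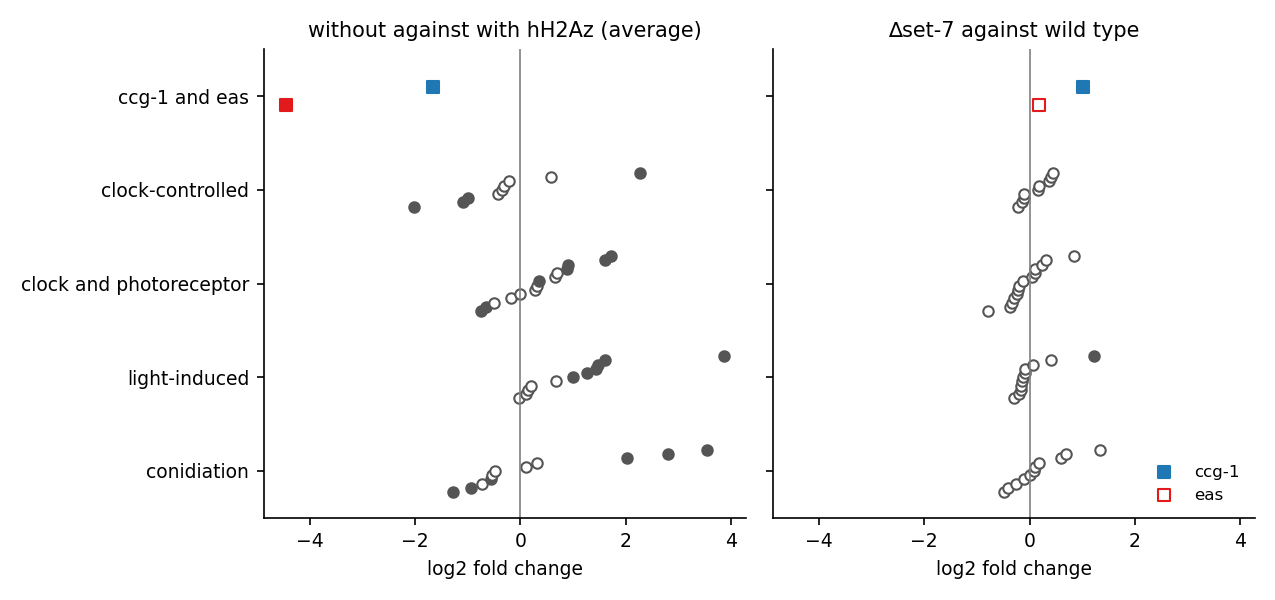
Log2 fold change (x axis) of ccg-1 and eas (squares) and of each tested member of 4 gene lists (circles), in the average over strains without against with hH2Az (left) and in ∆set-7 against wild type (right). Filled symbols passed an adjusted p under 0.05. On the left ccg-1 and eas lie on the falling side while the called light-induced genes lie on the rising side; on the right ccg-1 and cao-2 are the only filled symbols.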

How the data were processed

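The authors deposited 1 table of raw read counts per gene for the 12 RNA-seq libraries; per the file headers they counted reads over exons with featureCounts 1.6.2 and the NC12 annotation, with no strand option set. Per the labels, libraries were made with a stranded poly(A) kit. The submitters' processing notes also name Trim Galore, FastQC, BWA 0.7.15, SAMtools 1.3.1, HOMER 4.8 and deepTools 3.3.1, with no role given. Of 54 samples, 42 are ChIP samples and were not analysed here. Gene names came from RefSeq, matched by position for 10397 of 10398 genes.

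Counts were filtered with filterByExpr (8372 genes), scaled by TMM and fitted with edgeR 4.0.16 (R 4.3.3), robust quasi-likelihood, with 1 coefficient per strain over all 12 libraries; p-values were adjusted over all genes tested (threshold 0.05), and SEs and 95% intervals are Wald values. CPM are TMM-scaled. The ratio used exon lengths, a pseudocount of 0.5 reads and an exact permutation test (scipy 1.17.1). Likeness used log2 CPM with a prior count of 2. Precision rests on total counts of 13581416 to 19720473 per library. On simulated counts for 8295 genes, 81% of genes changed by 2 log2 units and 94% of those changed by 3 were recovered in ∆hH2Az against wild type. Smaller changes, such as that of ccg-1 in ∆hH2Az, were not simulated, nor was the departure of replicate 3. These rates therefore do not give the power for such changes.

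The genes, lists and tests were chosen with earlier results of these data known. Named genes are the members, the deleted genes, the 3 closest profiles to each member, the 2 nearest genes on each side, and up to 3 called list members per direction; marker genes and single calls outside this rule were named after their values were seen. Of 63 list entries 59 matched. Alternatives covered scaling, filters, DESeq2 1.42.0, limma 3.58.1, the tag, the replicate number and each library left out. Replicates differed by more than sampling noise in every pair, so none was merged, and replicate 3 stood apart in every strain. Replicate numbers paired the libraries of wild type and ∆set-7, whose deviations from the strain means correlated by 0.431, 0.167 and 0.245, each over 0.1. Those of ∆hH2Az and ∆set-7 also passed 0.1 in every pair (0.156, 0.147 and 0.266). These strains were not compared directly, but both enter the interaction and the average over hH2Az. For no other strains compared did every pair pass 0.1.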

Additional observations from a re-analysis of the deposited data

Results flagged for a closer look

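The effect of deleting set-7 on ccg-1 differed with the presence of hH2Az: the interaction of the deletions was -1.299 on the log2 scale (edgeR adjusted p = 0.04998, n = 3 libraries per strain), from a rise of 1.01 where hH2Az is present and a difference of -0.29 where it is absent. The range of the adjusted p over its 21 alternatives was 3.58e-05 to 0.214, and 13 of them missed the threshold.

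The eas difference between ∆set-7 and wild type had opposite signs in the 2 tags: the log2 ratio of mean CPM was -2.61 in the libraries tagged 920, where both libraries of ∆set-7 lay below both of wild type, and 2.68 in those with the other tag. No test of this difference between tags is reported, because the other tag has 1 library per strain.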

How the results depend on the processing

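Over 360 alternative values of 17 results for ccg-1, eas and their ratio, 316 kept their direction and side of the threshold. All alternatives did so for ccg-1 in ∆hH2Az and ∆hH2Az;∆set-7 against wild type, in ∆hH2Az;∆set-7 against ∆set-7 and in the average over hH2Az, and for eas in ∆hH2Az against wild type (-7.01 to -5.85) and in that average (-5.27 to -3.22). Without 1 library each, ccg-1 in ∆set-7 against wild type was 0.93 to 1.09 and its interaction -1.38 to -1.20. With the replicate block on wild type and ∆set-7 alone, chosen after seeing the data, the difference in ∆set-7 was 1.03 for ccg-1, no longer called, and -1.06 for eas. The ccg-1 interaction missed the threshold with DESeq2 size factors (-1.292), with no filter beyond 1 read (-1.312), with limma-voom (-1.303) and with the replicate block (-1.300, edgeR adjusted p = 0.102). eas in ∆set-7 against wild type was -0.23 with the tag as a covariate, -2.59 in the 920 libraries alone (edgeR adjusted p = 0.0100), -0.74 with limma-voom and -0.18 with the replicate block, and -2.26 to 0.71 without 1 library. In the 920 libraries alone the following passed: eas in ∆hH2Az;∆set-7 against wild type (-2.18) and against ∆hH2Az (4.83), its interaction (7.42) and ccg-1 in ∆hH2Az;∆set-7 against ∆hH2Az (-0.42); eas in ∆hH2Az;∆set-7 against ∆set-7 turned to 0.41. DESeq2 called eas in ∆hH2Az;∆set-7 against ∆hH2Az (4.05). Without 1 library, eas in ∆hH2Az;∆set-7 ranged from -3.996 to -1.80 against wild type and from -4.17 to -0.0733 against ∆set-7. The other tag against 920 was -0.01 for ccg-1 (0.00623 with no filter beyond 1 read, -0.0768 to 0.0527 without 1 library) and 0.57 for eas (-1.45 to 1.73), called for neither. The eas to ccg-1 difference was 0.13 in ∆set-7 and ∆hH2Az;∆set-7 only and -3.35 to -2.05 without 1 library. The causes were not tested.

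With the block over all 12 libraries no other call of ccg-1 or eas changed. A fit with strain-by-tag terms, also chosen after seeing the data, is not reported because the other tag has 1 library per strain.

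Without 1 library, counts of genes called ranged from 43 to 113 in ∆set-7 against wild type (86), 1636 to 2990 in ∆hH2Az (2604), 1618 to 2843 in ∆hH2Az;∆set-7 (2551), 1643 to 2797 against ∆set-7 (2486), 62 to 473 against ∆hH2Az (121), 5 to 116 for the interaction (15) and 1 to 1165 for the tag (61). In the 920 libraries alone they moved to 904 from 86 in ∆set-7 against wild type, 4648 from 2604 in ∆hH2Az, 4578 from 2551 in ∆hH2Az;∆set-7, 4797 from 2486 against ∆set-7, 2478 from 121 against ∆hH2Az and 2167 from 15 for the interaction. DESeq2 called 159, 292 and 70 genes in ∆set-7 against wild type, ∆hH2Az;∆set-7 against ∆hH2Az and the interaction, and 756 for the tag, which was 95 with upper-quartile scaling, 177 with a mean of at least 5 CPM and 101 with limma-voom. With a mean of at least 5 CPM the counts were 57 in ∆set-7 and 77 in ∆hH2Az;∆set-7 against ∆hH2Az (48 with only those strains). Depth limits eas in ∆hH2Az, where it rests on 30 reads in all.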
